A study of Mus musculus with 8 samples.

Results

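The cells described here were nonclassical monocytes of the mouse kidney, 2970 of 90855 cells that passed the quality limits and of 120281 cell barcodes in all. They were selected on their counts of 12 genes. A cell was kept when its summed count of Ace, Adgre4, Treml4, Cd300e, Ear2 and Ceacam1 was at least 4 and not below its summed count of the classical monocyte genes Vcan, F13a1, Chil3, Fn1, Ly6c2 and Ccr2. It could hold at most 2 counts of C1qa, C1qb and C1qc together, at most 1 of the tubule genes Lrp2 and Slc34a1, and at most 1 of Flt1, Pax5, Themis and Slc12a1. Levels of these genes in the members are therefore a description of the choice and carry no test.

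The cells came from male C57BL/6 mice in which the left kidney was clamped for 30 min and then reperfused (ischemia-reperfusion injury, IRI). Mice received entospletinib, an inhibitor of the spleen tyrosine kinase SYK, at 20 mg/kg by intraperitoneal injection from before the injury onward, or the vehicle, and kidneys were taken on days 1, 7 and 14. Control kidneys were left untouched, and the sources used here do not say whether those mice were injected, so in vehicle against control the injury and the injections cannot be told apart. Live leukocytes were enriched by scatter and a viability dye, with no antibody to a cell type. Each of the 7 conditions was 1 pool of 3 mice. All 7 were split over 8 sublibraries, which are technical portions of the same cells, so the SD over sublibraries given below is technical. No comparison at a single day has a biological replicate, and the only test possible was of a treatment effect shared by the 3 same-day pairs of vehicle and entospletinib pools.

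Nonclassical monocytes are blood monocytes that patrol the inner surface of capillaries, holding on through the integrin LFA-1 (Itgal with Itgb2) and surviving through the fractalkine receptor Cx3cr1. They arise from classical, Ly6C-high monocytes under the transcription factor Nr4a1 together with Cebpb. SYK is the kinase that docks on the phosphorylated ITAM tails of adaptors such as Fcer1g and Tyrobp and passes on signals from Fc receptors, C-type lectins and integrins. Members of the selecting gene set have varied roles: Ace cleaves angiotensin I, Adgre4 is an adhesion G protein-coupled receptor, Treml4 and Cd300e are receptors that pair with ITAM adaptors, Ceacam1 is an inhibitory adhesion molecule, and Ear2 is an eosinophil-type ribonuclease.

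Adgre4 (ENSMUSG00000032915) was the marker found most often, with a count in 93.8% of members, followed by Ace in 77.3%, Ceacam1 in 54.8%, Treml4 in 45.3%, Ear2 in 32.2% and Cd300e in 27.8%. The median member held counts of 3 of the 6 genes, and 163 members (5.49%) held counts of a single gene, which was Adgre4 in 124 of them. Because Adgre4 was the marker found most often, the start of its gene is shown. Adgre4 lies on the forward strand of chromosome 17 at 55749984 to 55853662 (mm10). Of 5 short motifs of myeloid transcription factors searched on both strands of the RefSeq promoter windows (250 bases before to 50 after each start, build GRCm38.p6), the ETS-type motif GAGGAAGT was present in 1 of the 6 selecting genes and in 3.20% of all 32851 windows. The 30 bases at chr17:55750004-55750033, forward strand, hold its reverse complement, in capitals:
Adgre4: gaacaagataagcagtggtgcACTTCCTCc
The other motifs searched were AAAGGTCA (in 1.51% of all windows), TTGCGCAA (0.183%), TGTGGTTT (1.78%) and ATGCAAAT (1.74%), and none of them was in a window of the 6 genes. A match is a run of letters, not a measured binding site.

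The members held 10126709 counted transcripts with a median of 3047 per cell, and each sublibrary gave 332 to 396 members. Depth differed between the pools. Members from vehicle day 1 had a median of 3703 transcripts per cell, those from entospletinib day 1 had 2575.5, and those from entospletinib day 14 had 1192, with 39.2% under 1000. The summed counts per pool ran from 103003 (entospletinib day 14, 74 cells) to 5673544 (vehicle day 1, 1422 cells), so values at day 1 are the most precise. Of 105340 well combinations, 13712 were seen in more than 1 sublibrary, and 54 members shared theirs with another member. Near the threshold, 439 members had a summed marker count of exactly 4, and 526 cells that met the other conditions had 3.

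Nonclassical monocyte genes that the selection did not use were higher in the members than in cells gated as classical monocytes (8411 cells) by the mirrored rule. The classical gate also barred more than 3 counts of neutrophil genes, which the selection of the members did not. Of 16 such markers, 15 were higher in all 7 pools, and Itgax (CD11c), at 206 against 129 CPM (counts per 1000000 transcripts of the cells summed), was not. As background, 21.5% of 3178 genes that averaged at least 50 CPM were higher in all 7 pools and 9.38% were lower in all 7. Both gates are defined on measured genes of the same cells, so these are descriptions with no test. None of the 16 markers was lower than in the classical gate in all 7 pools. Of 9 classical monocyte markers that the selection did not use, S100a4 was lower than in the classical gate in all 7 pools (159 against 206.5 CPM), Plac8 was higher in all 7 (448 against 215), and the other 7 were neither, with Hp (haptoglobin) at 75.4 against 61.4 CPM. Against macrophages 7 of the 9 were higher in all 7 pools, as were 25.7% of all genes.

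Among these markers, Itgal (the alpha chain of LFA-1) stood at 883 CPM in members and 174 in classical monocytes, and Spn (CD43, the sialomucin used to sort these cells) at 279 and 37.3. The transcription factor Nr4a1 was at 1092 against 383 CPM, and Pou2f2 at 1007 against 246. In every pool the member value was the higher one, by 1.22 to 2.10 on the log2 scale for Nr4a1 and by 2.26 to 3.28 for Spn. Fcgr4, the activating Fc receptor that binds IgG2 immune complexes, was at 120 against 29.1 CPM, and Cx3cr1 at 448 against 212. Against cells gated as macrophages by C1q counts (13708 cells), 11 of the 16 markers were higher in all 7 pools, where the background was 25.7% of genes higher and 14.4% lower. Cx3cr1 went the other way, at 954 CPM in the macrophages, as kidney macrophages also carry this receptor. The plot of the markers outside the rule shows each pool in the 3 gates.

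**Figure D1:**
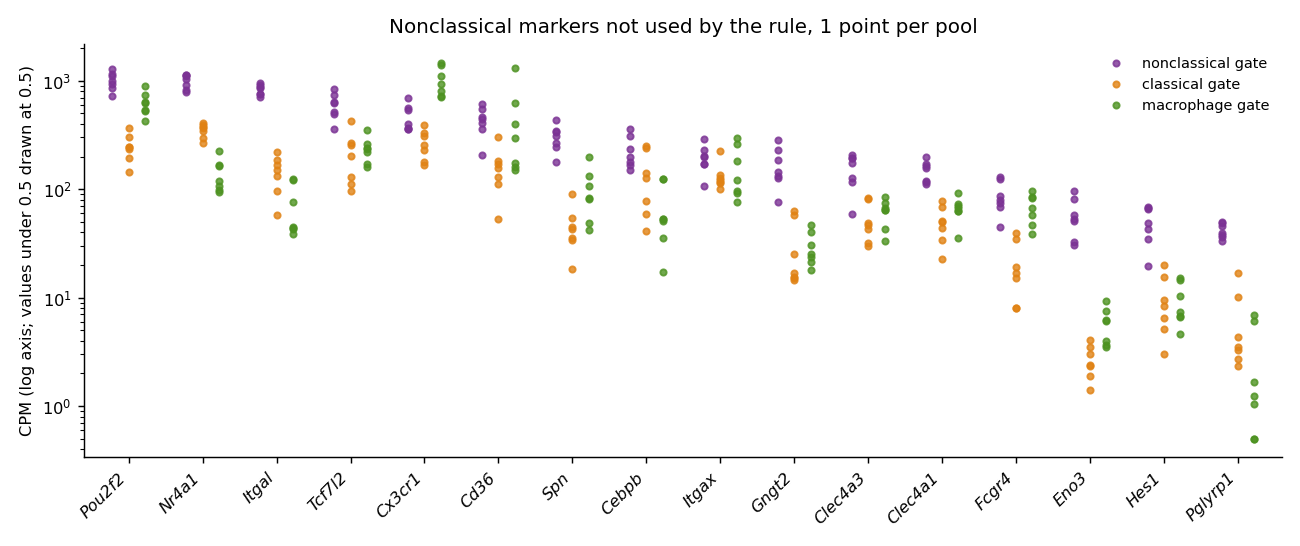
Level in CPM (log axis) of the 16 nonclassical monocyte markers that the selection did not use, with 1 point for each of the 7 pools in the nonclassical (purple), classical (orange) and macrophage (green) gates. Itgal, Nr4a1, Spn and Eno3 lie above the classical gate in every pool, while Cx3cr1 is highest in the macrophage gate.

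By the smallest ratio to classical monocytes over the 7 pools, the leading genes outside the rule were Ccdc192 (67.8 against 0.874 CPM), Dnah12 (192 against 5.43), Vegfc (78.7 against 2.30), Eno3 (63.1 against 3.34) and Tgfbr3 (126 against 5.75), followed by Pparg, Slc12a2, Smpdl3b, Tiam2 and Dusp16. Eno3 is also 1 of the 16 markers. Dnah12 encodes an axonemal dynein heavy chain, Vegfc a lymphatic growth factor, Eno3 the muscle-type enolase and Tgfbr3 the co-receptor betaglycan. Pparg, a lipid-sensing nuclear receptor, stood at 351 CPM in members, 46.9 in classical monocytes and 152 in macrophages. Dusp16, a phosphatase of the JNK and p38 kinases, stood at 1424, 251 and 256 CPM. In the opposite direction the leading genes were Emp1 (4.15 against 99.5 CPM), Pmepa1, Mmp19 (5.04 against 100.2), Dab2 (47.4 against 518), Dip2c, Fgf13, S100a10, Pvt1 and Tbxas1. The metalloproteinase Mmp19 was thus close to 0 in the members.

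Genes of the SYK pathway were compared with the classical gate in the same way. Syk itself (chromosome 13, 52583173 to 52648792, forward strand) was at 957 CPM in members, 708 in classical monocytes and 441 in macrophages, and the difference from classical monocytes ran from 0.21 to 0.78 (log2) over the 7 pools. Of 22 genes of the pathway, 12 were higher than in classical monocytes in all 7 pools and 1, the adaptor Lat2, was lower, beside 21.5% and 9.38% of all genes. The Src-family kinases Fgr (1062 against 451 CPM) and Fyn (852 against 412) and the ubiquitin ligase Cblb (709 against 184), which limits this signaling, were among the 12. Of 19 genes of adhesion and trafficking that the rule did not use, 11 were higher in all 7 pools and 1 was lower (the same 21.5% and 9.38% over all genes), and Cx3cr1, Itgal and Spn of the 11 are also among the 16 markers. S1pr5, the sphingosine phosphate receptor that lets these monocytes leave the bone marrow, was at 42.3 CPM in members and 0.848 in classical monocytes. Bcl2, the survival factor, was at 466 against 83.7 CPM. None of 20 inflammatory cytokine and chemokine genes was higher in all 7 pools (21.5% over all genes) and 4 were lower (9.38%), with Ccl2 at 10.4 against 139 CPM and Vegfa at 16.3 against 128.

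Markers of other cells were present at differing levels. Of 10 macrophage markers outside the rule, 9 were below the macrophage gate in all 7 pools (14.4% of all genes were), with Stab1 at 25.7 against 652 CPM and Mrc1 at 25.6 against 799. Apoe and Adgre1 were the highest of the 10 in the members, at 662 and 214 CPM, against 1687 and 836 CPM in macrophages and 382 and 191 CPM in classical monocytes. Against the classical gate 3 of the 10 were lower in all 7 pools and none was higher, beside 9.38% and 21.5% of all genes. Summed T cell markers (Cd3e, Trac, Trbc2, Skap1, Bcl11b) ran from 6.59 to 97.1 CPM, NK cell markers from 0 to 19.4 and platelet markers from 0 to 13.2. Other sums were higher. Outside the rule, B cell markers ran from 81.2 to 184 CPM, endothelial markers from 125 to 302 and tubule markers from 32.9 to 256. Erythroid markers ran from 4.40 to 272 CPM, and the highest tubule and erythroid sums were both on entospletinib day 7. Markers of type 2 conventional dendritic cells ran from 20.6 to 216 CPM and those of type 1 from 506 to 1212. Neutrophil genes were present too. Summed over 7 neutrophil markers the level was 196 CPM in control, 701, 929 and 331 in vehicle on days 1, 7 and 14, and 413, 231 and 214 with entospletinib. Csf3r, itself 1 of the genes called below, gave 73 of the 89 control counts in this sum. The other 6 markers summed to 35.2 CPM in control, to 427, 606 and 140 CPM with vehicle and to 257, 96.9 and 117 CPM with entospletinib. At least 1 count of S100a8, S100a9, Retnlg, Cxcr2 or Mmp9 was found in 9.35% of control members, in 34.4%, 36.6% and 12.5% of vehicle members and in 24.6%, 10.9% and 12.2% of entospletinib members. Ly6g, the defining neutrophil surface gene, was at 0.395 CPM over all members. Neutrophil transcripts thus moved with injury and with treatment at days 1 and 7, and results they touch are given below with and without the 815 members that held them. Free RNA, a second cell under 1 barcode and the monocytes' own expression cannot be told apart here.

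Nonclassical monocytes made up 1.24% of control cells (139 of 11205, exact Clopper-Pearson 95% interval 1.04 to 1.46, SD 0.170 over 8 sublibraries). On day 1 after injury the share was 6.32% with vehicle (1422 of 22489, interval 6.01 to 6.65, SD 0.486) and 7.58% with entospletinib (1064 of 14041, interval 7.15 to 8.03, SD 0.484). By day 7 the share had dropped to 0.671% with vehicle (41 of 6110, interval 0.482 to 0.909, SD 0.370) and to 1.45% with entospletinib (110 of 7605, interval 1.19 to 1.74, SD 0.352). Day 14 gave 0.695% (120 of 17261, interval 0.577 to 0.831, SD 0.209) and 0.609% (74 of 12144, interval 0.479 to 0.764, SD 0.230). Both day 1 pools stood above the other 5 pools in every sublibrary. The intervals cover counting error only, and with 1 pool of mice per condition the shares at a single day have no test. Over the 3 same-day pairs none was run, since an exact permutation test could not give a p below 0.25.

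The share on day 1 with vehicle was 5.10 times that of control (log2 2.35, interval 2.10 to 2.61, higher in 8 of 8 sublibraries). On days 7 and 14 it lay below control, with log2 ratios of -0.89 (interval -1.43 to -0.37, lower in 7 of 8) and -0.84 (interval -1.20 to -0.47, lower in 8 of 8). These 3 comparisons share the control pool. Entospletinib over vehicle was 0.26 on the log2 scale on day 1 (interval 0.15 to 0.38, higher in 7 of 8 sublibraries), 1.11 on day 7 (interval 0.58 to 1.66, higher in 8 of 8) and -0.19 on day 14 (interval -0.63 to 0.24, lower in 4 of 8 with 0.5 added to each count). In 1 more sublibrary of day 14 the shares were nearly tied, at 0.758% in both pools. With at least 6 marker counts asked for, the ratios were -0.0047 on day 1 (interval -0.14 to 0.13), 0.86 on day 7 (interval 0.18 to 1.57) and -1.25 on day 14 (interval -1.99 to -0.57), and members with entospletinib were shallower on each day. With cells thinned to 1000 transcripts, shallower cells left out and all limits of the rule lowered with it (at least 2 marker counts, at most 1 of C1q and 0 of the other barred genes), they were 0.37 on day 1 (interval 0.25 to 0.49, higher in 8 of 8), 0.55 on day 7 (interval 0.021 to 1.1, higher in 5 of 8) and 0.48 on day 14 (interval 0.067 to 0.88, higher in 6 of 8). Thinning and the lower limits were changed together, so their effects cannot be told apart.

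The 2 monocyte gates together gave another denominator. Nonclassical cells were 23.6% of gated monocytes in control, 26%, 5.13% and 8.93% with vehicle on days 1, 7 and 14, and 47.2%, 17.6% and 25.3% with entospletinib. The log2 ratio of entospletinib over vehicle on this scale was 0.86, 1.78 and 1.5, higher in 8 of 8 sublibraries on each day. Classical cells numbered 4055, 758 and 1224 with vehicle and 1191, 514 and 219 with entospletinib. Against control the vehicle ratio on this scale was 0.14 on day 1, -2.20 on day 7 and -1.40 on day 14. A share gives the mix of sorted cells and not their number per kidney.

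**Figure D2:**
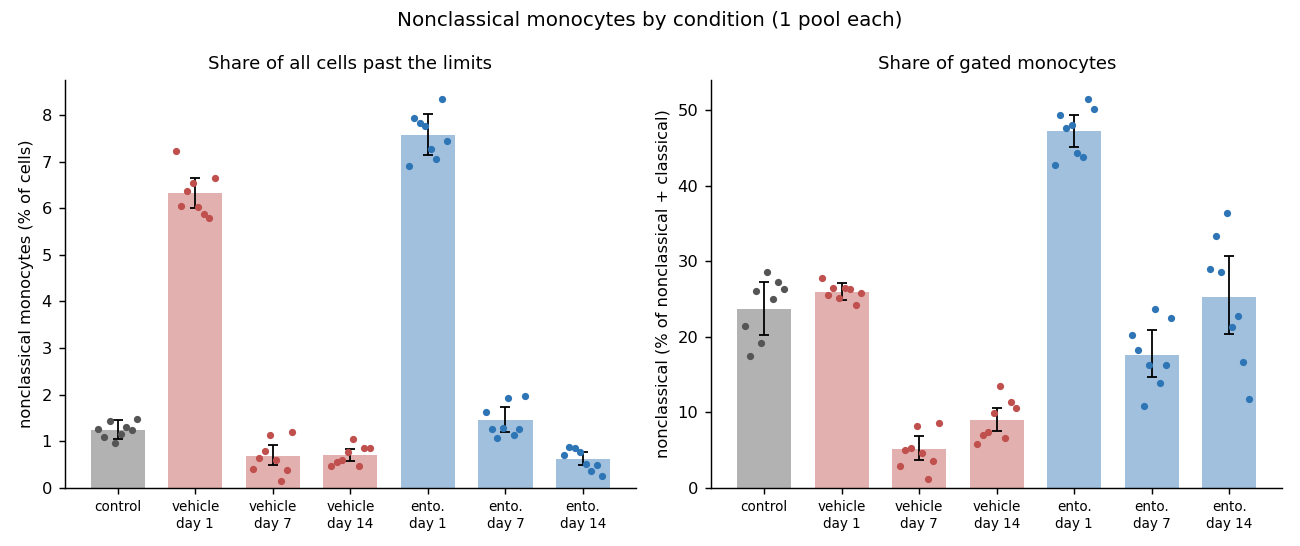
Nonclassical monocytes as percent of all cells past the limits (left) and of nonclassical plus classical gated monocytes (right) in the 7 conditions; bars are the pool's share, error bars the exact 95% interval (counting error only) and points the 8 sublibraries. The share of all cells is 6.32% and 7.58% at day 1 and under 1.5% in the other pools, and the share of monocytes is higher with entospletinib than with vehicle at each day.

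To ask whether entospletinib changed the transcripts of the members at all 3 days, counts were summed over the members of each injured pool and fitted with edgeR (quasi-likelihood test, day as block, Benjamini-Hochberg adjustment over all 4584 genes tested). With entospletinib 9 genes were higher (0.196% of genes tested) and 17 were lower (0.371%) at an adjusted p under 0.05, and 373 genes had an unadjusted p under 0.05. The higher genes comprised 3 mitochondrially encoded subunits of the respiratory chain (mt-Nd2, mt-Nd4, mt-Cytb), 2 ribosomal protein genes (Rps23, Rpl13a), the calcium-binding protein S100a4, the cyclin Ccnd3, and the tubule genes Slc12a3 and Klk1. The lower genes comprised inflammatory mediators and enzymes (Il1rn, Ptgs2, Hdc), the nuclear receptor Nr4a3, the pro-apoptotic BH3 gene Bcl2l11 with its neighboring long noncoding RNA Morrbid, the granulocyte colony-stimulating factor receptor Csf3r, and Ankrd33b, Chst11, Sgms2, Iqsec1, Smox, Abtb2, Mxd1, Mpp7, Chd7 and Lyst. The selecting genes took part in library scaling only. All 9 and all 17 had the same direction at each day relative to the median gene.

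**Figure D3:**
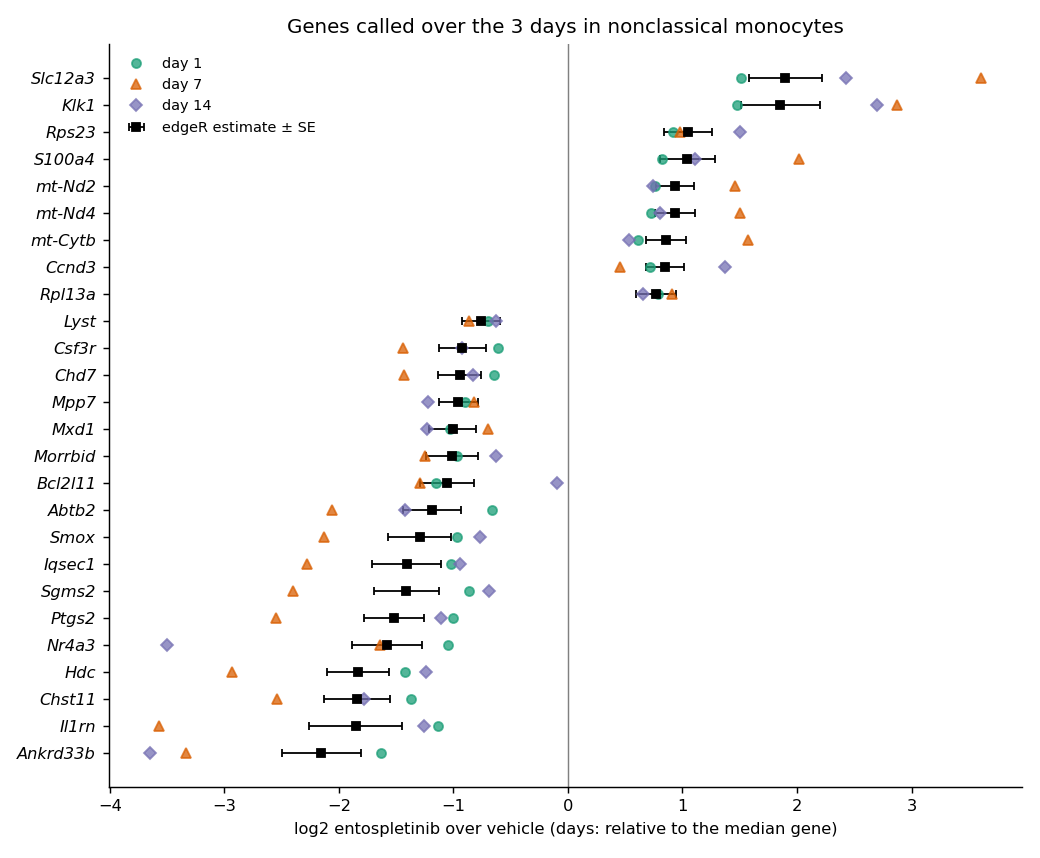
Log2 of entospletinib over vehicle for the 9 higher and 17 lower genes; black squares with bars are the edgeR estimate ± SE over the 3 same-day pairs, and colored points the single days relative to the median gene. Day 7, with 41 vehicle members, holds the most extreme value for many of the genes, for example 3.61 for Slc12a3 and -3.57 for Il1rn.

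Hdc, which makes histamine from histidine, stood at 224, 303 and 123 CPM with vehicle on days 1, 7 and 14, at 72.7, 43.8 and 48.5 CPM with entospletinib and at 13.2 CPM in control. Every vehicle pool was above every entospletinib pool, and its edgeR log2 fold change was -1.83 (SE 0.27, Benjamini-Hochberg adjusted p = 0.0041). Ptgs2 (chromosome 1, 150100031 to 150108227, forward strand), the inducible cyclooxygenase, stood at 188, 474 and 196 CPM with vehicle, at 81.5, 90.6 and 87.4 CPM with entospletinib and at 90.2 CPM in control. With entospletinib it lay close to the control value on all 3 days, and its edgeR log2 fold change was -1.52 (SE 0.26, adjusted p = 0.016). Il1rn, the interleukin-1 receptor antagonist, was at 51.3, 211 and 56.0 CPM with vehicle, 20.2, 18.8 and 19.4 CPM with entospletinib and 11 CPM in control. Chst11, a chondroitin sulfotransferase, was at 116, 342 and 81.2 CPM with vehicle and at 39.1, 65.6 and 19.4 CPM with entospletinib. Its log2 fold change was -1.84 (SE 0.29, edgeR adjusted p = 0.0041). Groups did not overlap for any of these 4 genes. Of all 3178 genes, 6.48% had all 3 entospletinib pools below all 3 vehicle pools, and 4.06% had them above.

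Some of these levels were held by few cells. In vehicle members of days 7 and 14, 34 of 46 and 23 of 44 counts of Hdc were in 2 cells, without which its levels were 79.0 and 58.8 CPM. For Ptgs2 43 of 72 vehicle counts of day 7 were in 2 cells, and the level without them was 191 CPM. Il1rn without the 2 leading cells stood at 49.2, 125 and 28.0 CPM with vehicle and at 17.3, 3.12 and 0 CPM with entospletinib, and Chst11 at 107, 224 and 56.0 CPM and at 34.6, 25.0 and 0 CPM. On entospletinib day 14 each of these genes had 2 counts in 2 cells, so both values of 0 follow from leaving those cells out. With the counts of a gene in a cell capped at 5 (an alternative chosen after seeing the data), Hdc did not pass (log2 -1.25, adjusted p = 0.051), whereas Ptgs2 (-1.05), Il1rn (-1.79) and Chst11 (-1.59) did. Over the 26 genes, 24 could be fitted with this cap, 14 were still called and none changed sign.

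Neutrophil transcripts moved with these genes. On vehicle day 1, all 17 lower genes had a higher level in members with neutrophil transcripts than in members without (median log2 1.06), while 42.6% of all 3178 genes did (median -0.03). The median depth was 4137 transcripts in the first kind of member and 3499 in the second. On entospletinib day 1 it was 14 of the 17 (median 0.58), against 45.3% of all genes (median -0.02). Of the 9 higher genes, 7 on vehicle day 1 and 8 on entospletinib day 1 were also higher in members with neutrophil transcripts, both with a median of 0.12. Hdc, for example, was at 495 CPM in vehicle day 1 members with neutrophil transcripts and at 53.9 CPM in those without, and Ptgs2 at 262 and 142 CPM. In a fit without the 815 members (an alternative chosen after seeing the data), 7 genes were higher and 2 lower, of which 5 and 1 were among the 9 and 17. Estimates kept their sign for the 23 genes that still passed the count filter, but that of Ptgs2 went from -1.52 to -0.22 and that of Sgms2 from -1.41 to -0.15. The part of neutrophil RNA in the lower genes was not tested beyond these values.

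Nr4a3 (chromosome 4, 48045153 to 48086447, forward strand), an inducible nuclear receptor of the Nr4a1 family, was the 1 lower gene that also passed without these members. It stood at 162, 165 and 381 CPM with vehicle on days 1, 7 and 14, at 68.5, 59.4 and 29.1 CPM with entospletinib and at 96.8 CPM in control. Vehicle pools were all above control and entospletinib pools all below it. Without the 2 leading cells of each pool the levels were 155, 79.0 and 258 CPM with vehicle, 63.9, 28.1 and 9.71 CPM with entospletinib and 68.2 CPM in control, and Nr4a3 passed with capped counts (log2 -1.31, adjusted p = 0.015). On entospletinib day 14 Nr4a3 had 3 counts, of which 2 were in the cells left out. It did not pass with the limit on ribosomal protein transcripts (adjusted p = 0.076) or with at least 6 marker counts (0.11). The edgeR log2 fold change was -1.58 (SE 0.31, Benjamini-Hochberg adjusted p = 0.038), and -1.32 (adjusted p = 0.015) without members that held neutrophil transcripts. On vehicle day 1 its level was 182 CPM in members with and 150 CPM in members without neutrophil transcripts. The levels were 236 and 113 CPM on vehicle day 7 and 941 and 274 CPM on vehicle day 14. Control members without these transcripts stood at 105 CPM. A count of Nr4a3 was found in 24.8% of vehicle and 11.5% of entospletinib members on day 1, at median depths of 3703 and 2575.5. Nr4a1, the lineage factor, did not pass (log2 -0.27, SE 0.16, adjusted p = 0.77) and stood at 1123, 1133 and 1034 CPM with vehicle and at 1103, 797 and 816 CPM with entospletinib.

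Ccnd3 (chromosome 17, 47505051 to 47599691, forward strand), the cyclin D of resting and differentiating blood cells, was at 486, 389 and 535 CPM with vehicle, at 699, 606 and 1398 CPM with entospletinib and at 865 CPM in control. All vehicle pools were below all entospletinib pools, and the log2 fold change was 0.85 (SE 0.17, edgeR adjusted p = 0.018). Without the members that held neutrophil transcripts it was 0.88 (adjusted p = 0.0082), and without the day 14 pair 0.59 (adjusted p = 0.26). S100a4 was at 144, 26.4 and 81.2 CPM with vehicle, at 222, 134 and 175 CPM with entospletinib and at 48.4 CPM in control (log2 1.04, SE 0.24, adjusted p = 0.043, and 0.092 and 0.060 without the pairs of days 1 and 14). Here the groups overlapped, since vehicle day 1 was above entospletinib day 7. The respiratory chain gene mt-Nd2 was at 279, 264 and 358 CPM with vehicle, at 412, 828 and 602 CPM with entospletinib and at 420 CPM in control (log2 0.94, SE 0.17, adjusted p = 0.0084). The median mitochondrial share of the members was 2.23%, 3.92% and 4.90% with vehicle and 2.61%, 4.42% and 3.65% with entospletinib. Rps23 was at 156, 85.6 and 78.4 CPM with vehicle and at 257, 197 and 223 CPM with entospletinib (log2 1.05, SE 0.21, adjusted p = 0.018). Cells with at least 1.5% ribosomal protein transcripts made up 5.84% of vehicle and 21.7% of entospletinib members on day 1, and with such cells left out Rps23 did not pass (log2 0.92, adjusted p = 0.092). Nor did it pass without the pair of day 1 (adjusted p = 0.11), without that of day 14 (0.072) or without members that held neutrophil transcripts (0.077).

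Slc12a3, the thiazide-sensitive sodium chloride transporter of the distal tubule, and Klk1, tissue kallikrein, are kidney epithelial genes and were carried by few cells. Slc12a3 had 293 counts on entospletinib day 1, of which 215 were in 2 cells, and 72 on entospletinib day 7, of which 66 were in 2 cells. Without the 2 leading cells of each pool its level was 25.4 CPM on entospletinib day 1 and 32.1 CPM on vehicle day 1. Klk1 had 83 of 184 counts and 32 of 43 counts in 2 cells of the same entospletinib pools. When the counts of a gene in a cell were capped at 5, neither gene passed the count filter. The edgeR fold changes of Slc12a3 and Klk1 were 1.90 and 1.86 on the log2 scale. On days 7 and 14 Slc12a3 without the 2 leading cells stood at 18.8 and 29.1 CPM with entospletinib and at 0 and 2.80 CPM with vehicle. Klk1 without them stood at 32.9, 34.4 and 29.1 CPM with entospletinib and at 19.4, 0 and 2.80 CPM with vehicle. On vehicle days 7 and 14 Klk1 had 2 and 4 counts, of which 2 and 3 were in the cells left out. Slc12a3 had 2 and 3 counts there, of which 2 and 2 were. The vehicle values of these days are thus low by construction and cannot show whether a difference remained. On day 1 Klk1 was higher and Slc12a3 lower with entospletinib. Klk1 did not pass without called doublets (adjusted p = 0.19) and passed without members that held neutrophil transcripts (log2 2.27). Slc12a3 did not pass without these members (log2 1.40, edgeR adjusted p = 0.36).

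**Figure D4:**
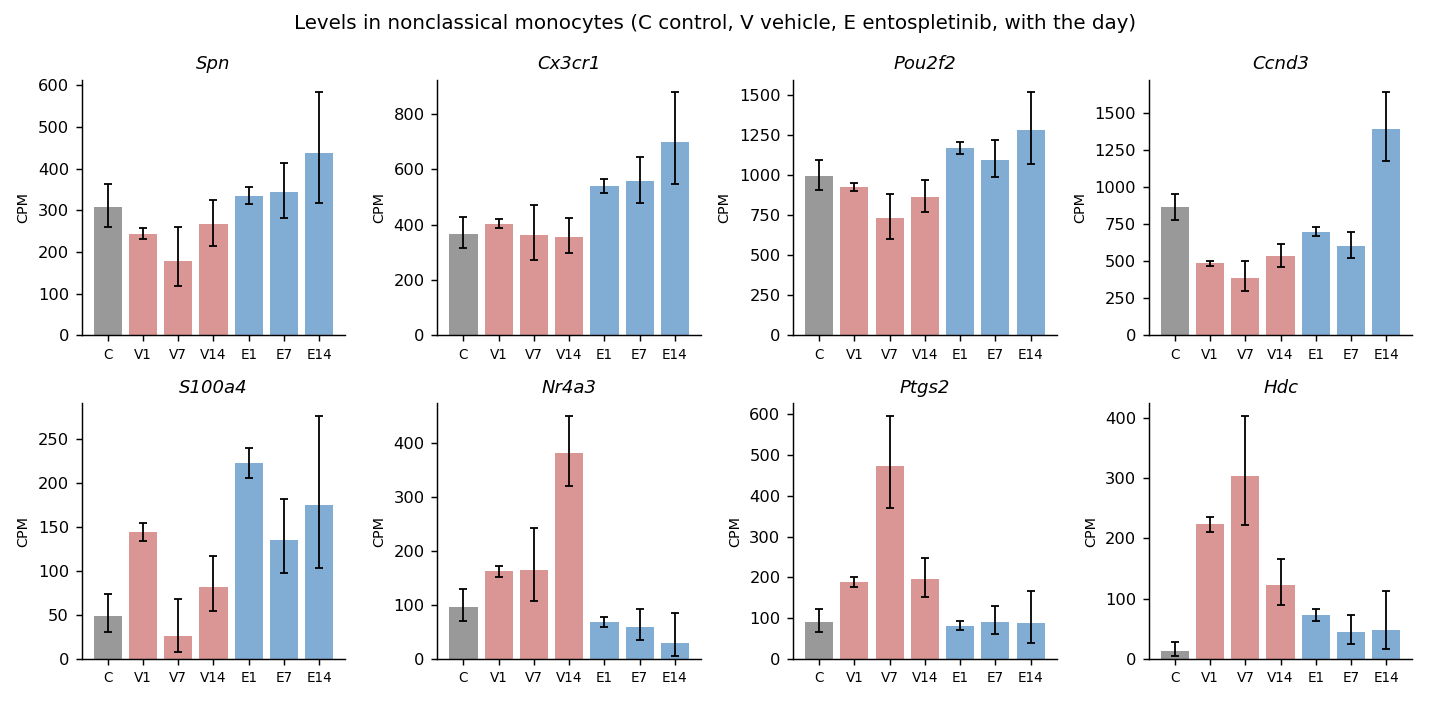
Levels in CPM of 8 genes in the nonclassical monocytes of the 7 pools (C control, V vehicle, E entospletinib, with the day); bars are the pool's level and error bars exact 95% Poisson intervals, which cover counting error only. Hdc, Ptgs2 and Nr4a3 are lower in all 3 entospletinib pools than in all 3 vehicle pools, and Ccnd3, Cx3cr1, Spn and Pou2f2 are higher.

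Cx3cr1, Spn and Pou2f2 had higher levels with entospletinib at each day and did not pass the test. Cx3cr1 stood at 402, 362 and 356 CPM with vehicle, at 539, 556 and 699 CPM with entospletinib and at 368 CPM in control (log2 0.66, SE 0.16, edgeR adjusted p = 0.067). Spn stood at 243, 178 and 266 CPM with vehicle, at 335, 344 and 437 CPM with entospletinib and at 308 CPM in control (log2 0.69, SE 0.17, adjusted p = 0.071). Pou2f2 stood at 927, 731 and 866 CPM with vehicle and at 1168, 1097 and 1282 CPM with entospletinib (log2 0.49, SE 0.14, adjusted p = 0.13). For all 3 genes the vehicle and entospletinib pools did not overlap. All 3 passed with counts capped at 5 per cell (adjusted p = 0.015 for Cx3cr1, 0.033 for Spn and 0.021 for Pou2f2), and Cx3cr1 also without the day 7 pair (0.030). None of the 3 passed without members that held neutrophil transcripts (0.39, 0.43 and 0.69). Of the 16 nonclassical markers outside the rule none passed in either direction, with a median log2 fold change of 0.27 against 0.01 over all 4584 genes.

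Among genes of the drug's own pathway, 21 were tested and none passed in either direction, where 0.196% of all genes were higher and 0.371% lower, so that a list of this size is not set apart by having no call. The median log2 fold change was 0.02, and 3 had an unadjusted edgeR p under 0.05 (373 of 4584 over all genes), among them Malt1 (-0.39, SE 0.17, adjusted p = 0.49) and Pik3ap1 (-0.37, SE 0.14, adjusted p = 0.38). Syk itself was at 1083, 685 and 751 CPM with vehicle and at 816, 678 and 738 CPM with entospletinib (log2 -0.17, SE 0.14, adjusted p = 0.92). Transcript levels do not measure kinase activity. The same holds for 14 Fc receptor and ITAM-adaptor genes (none passed, median -0.18) and 16 adhesion genes (none passed, median 0.01). The C-type lectins Clec4e (-0.71, SE 0.20) and Clec7a (-0.61, SE 0.18), the neutrophil and monocyte receptor Trem1 (-0.98, SE 0.29) and the adaptor Fcer1g (0.50, SE 0.19) had the highest absolute fold changes, with adjusted p between 0.14 and 0.32. In members without neutrophil transcripts, Clec4e was at 368, 125 and 140 CPM with vehicle on days 1, 7 and 14. With entospletinib Clec4e was then at 253, 242 and 186 CPM. Trem1 was at 111, 22.7 and 36.7 CPM with vehicle and at 77.2, 43.4 and 23.3 CPM with entospletinib. Clec4e thus turned on days 7 and 14 and Trem1 on day 7. Clec7a and Fcer1g kept their direction in CPM on each day. Among the adhesion genes Itgal was at 0.22 (SE 0.14, adjusted p = 0.86).

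Inflammatory and stimulus-induced genes lay mainly below 0. Of 10 cytokine, chemokine and related genes tested, 2 fell (Il1rn and Ptgs2) and none rose, against 0.371% lower over all genes, and the median log2 fold change was -0.59. Neutrophil transcripts moved with this list too, and without members that held them Ptgs2 was at -0.22. Among vehicle day 1 members with and without these transcripts, Cxcl2 was at 368 and 79.9 CPM, Nlrp3 at 288 and 162 CPM and the immediate early gene Egr1 at 119 and 93.1 CPM. In the 41 vehicle members of day 7 the same levels were 1886 and 56.7 CPM for Cxcl2, 1242 and 56.7 CPM for Nlrp3 and 755 and 102 CPM for Egr1. Il1b stood at 2607, 2174 and 1482 CPM with vehicle, at 1797, 925 and 1175 CPM with entospletinib and at 905 CPM in control (log2 -0.70, SE 0.20, edgeR adjusted p = 0.18). Of 14 immediate early genes, Nr4a3 fell, 10 were lower at an unadjusted p under 0.05 (background 207 of 4584), and the median was -0.57. Dusp1 (-0.81, SE 0.23, adjusted p = 0.15) and Fosb (-0.93, SE 0.33, adjusted p = 0.31), which did not pass, were among them. Among 9 survival genes Bcl2l11, encoding BIM, fell (log2 -1.06, SE 0.24, adjusted p = 0.039), from 196, 244 and 106 CPM with vehicle to 76.6, 112 and 97.1 CPM with entospletinib, with 68.2 CPM in control. Its day 14 values differed little, and over all members the fall lay on days 1 and 7. With vehicle on days 1 and 7, members without neutrophil transcripts stood at 170.5 and 79.4 CPM. With entospletinib such members stood at 72.6 and 112.1 CPM, so that the direction on day 7 turned. Of the 37 vehicle counts of Bcl2l11 on day 7, 18 were in 2 cells. Without the 2 leading cells of each pool, its day 7 levels were 125 CPM with vehicle and 71.9 CPM with entospletinib. With counts capped at 5 per cell Bcl2l11 did not pass (log2 -0.87, adjusted p = 0.069). Of 7 interferon-response genes tested none passed (median 0.11). The 5 cell cycle genes tested gave 1 call, Ccnd3, where 0.196% of all genes were higher.

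Genes of antigen presentation had negative fold changes, and none passed. Of 12 genes of MHC class II and costimulation tested none passed, 7 were lower at an unadjusted edgeR p under 0.05 (207 of 4584 over all genes), and all 12 fold changes were negative (median -0.50). The dendritic cell genes Mgl2, Flt3 and Cd209a had 46, 15 and 9 counts on vehicle day 14 and 0, 3 and 1 with entospletinib. These members held 356999 and 103003 counts in all. On day 7 the 3 genes had 3, 13 and 0 counts with vehicle and 20, 12 and 16 with entospletinib, of 151821 and 319973. On day 1 they had 40, 25 and 11 and 25, 16 and 9, of 5673544 and 3067063. The part of other cells in this list was not tested. H2-Aa was at 230, 303 and 378 CPM with vehicle, at 148, 184 and 155 CPM with entospletinib and at 339 CPM in control (log2 -0.75, SE 0.19, adjusted p = 0.084). Of its 46 vehicle counts on day 7, 30 were in 2 cells. Without the 2 leading cells of each pool it was at 222, 105 and 328 CPM with vehicle. With entospletinib it was then at 136, 147 and 87.4 CPM, so that the direction on day 7 turned. H2-Ab1 (-0.73, SE 0.23, adjusted p = 0.25), Cd80 (-0.80, SE 0.26, adjusted p = 0.21) and Cd83 (-0.58, SE 0.15, adjusted p = 0.10) also had negative fold changes. H2-Aa passed without the pair of day 1 (-1.08, adjusted p = 0.044) and without that of day 7 (-0.73, adjusted p = 0.023). Its estimate was -0.42 (adjusted p = 0.85) without members that held neutrophil transcripts.

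Removing cells called doublets left no gene past the threshold in either direction (edgeR, 4025 genes tested, 267 at an unadjusted p under 0.05). Doublet calls took 12.0% of vehicle and 4.79% of entospletinib members on day 1. The 23 called genes that could still be fitted kept their direction, with Nr4a3 at -1.55 (adjusted p = 0.082) and Ccnd3 at 0.91 (adjusted p = 0.058). Asking for at least 6 marker counts left 4 lower genes and none higher (217 at an unadjusted p under 0.05), and 2 of the 4 were among the 17. Over the 12 other choices of counts or fit, Nr4a3 was called in 8, Chst11 and mt-Nd2 in 9, Ptgs2 in 8, Ccnd3 in 7, Bcl2l11 in 5 and S100a4 and Rps23 in 4 each. Hdc was called in 7 of the 11 and Il1rn in 5 of the 9 in which they could be fitted. The same fit in classical monocytes gave 0 higher and 0 lower of 11241 genes tested (917 at an unadjusted p under 0.05). The classical gate limited counts of neutrophil genes and the selection of the members did not, so more than the cell kind differed. Members without neutrophil transcripts gave 7 higher and 2 lower of 4216 genes tested (246 at an unadjusted p under 0.05). The difference between members and classical monocytes, and the part of the gates in it, was not tested.

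**Figure D5:**
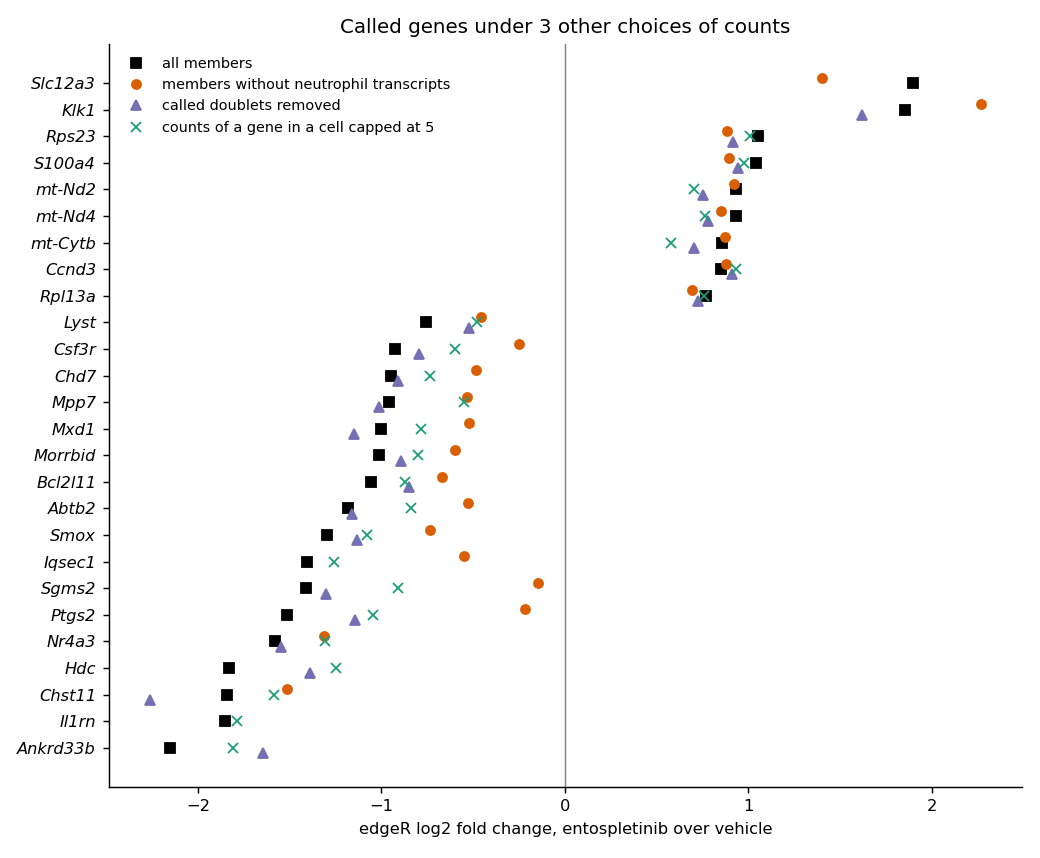
Log2 fold change (edgeR, entospletinib over vehicle) of the 26 genes with all members (black) and under 3 other choices of counts. All estimates keep their sign, while those of Ptgs2, Sgms2 and Csf3r move toward 0 (-0.22, -0.15 and -0.25) without members that hold neutrophil transcripts.

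Single days were compared as ratios relative to the median gene over all 3185 genes averaging at least 50 CPM, with no test. Entospletinib over vehicle passed 2-fold upward for 0.471% of genes and downward for 0.502% on day 1, for 6.31% and 6.72% on day 7 and for 5.18% and 6.5% on day 14. Days 7 and 14 rest on pools of 41 to 120 members, where counting error is larger than on day 1. On day 1, with the most cells, the inflammatory list had 2 of 8 genes past 2-fold downward and none upward, and the immediate early list had 1 of 13 downward. Among MHC class II and costimulation genes, 6 of 9 passed 2-fold downward on day 14, where the entospletinib pool had 103003 counts in all. The vehicle pool of that day had 356999. On day 14 the dendritic cell genes Mgl2, Flt3 and Cd209a were also lower with entospletinib. They had 46, 15 and 9 counts with vehicle and 0, 3 and 1 with entospletinib.

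Injury was compared with control the same way. Vehicle over control passed 2-fold upward for 3.64% of genes and downward for 2.57% on day 1, for 6% and 5.37% on day 7 and for 2.95% and 1.76% on day 14. The genes highest at all 3 days by their smallest ratio included Hdc, Acod1, Slc7a11, S100a9, Ccrl2, Il1rn and Tagln2. Acod1, which makes itaconate, was at 11 CPM in control and at 164, 369 and 89.6 CPM with vehicle on days 1, 7 and 14. Slc7a11, the cystine transporter, went from 13.2 CPM to 203, 507 and 104 CPM, and the neutrophil gene S100a9 from 13.2 CPM to 236, 264 and 67.2 CPM. Of the vehicle counts on day 7, 44 of 56 for Acod1 and 42 of 77 for Slc7a11 were in 2 cells, without which the levels were 79.0 and 230.5 CPM. Summed neutrophil markers stood at 196 CPM in control and 701 CPM on vehicle day 1. Without members that held neutrophil transcripts Acod1 was at 9.79 CPM in control and at 28.9, 11.3 and 30.0 CPM with vehicle, and Slc7a11 at 9.79 CPM in control and at 137, 22.7 and 76.8 CPM. The part of neutrophil RNA in these differences was not tested beyond these values. The cytokine list had 3 of 8 genes past 2-fold upward on day 1, 6 on day 7 and 3 on day 14, with none downward.

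In the other direction stood Siglech, Grm8, Mctp2, Senp7, Txlng, Akap8l, Arhgap22 and Atp1b1. Siglech, a receptor of plasmacytoid dendritic cells, had 97 counts in control members, of which 95 were in 2 cells, and 79 of 80 counts of Grm8 were also in 2 control cells. Over all pools 9 members held at least 2 counts of these 2 genes. Mctp2 had 60 counts in control members, of which 49 were in 2 cells. Without the 2 leading cells of each pool it stood at 24.2 CPM in control and at 26.3, 6.59 and 8.40 CPM with vehicle. Its control level was then not above that of vehicle day 1. Atp1b1 then stood at 48.4 CPM in control and at 47.4, 13.2 and 25.2 CPM with vehicle. Senp7, a SUMO protease, was spread over cells and stood at 123 CPM in control against 64.2, 39.5 and 56.0 CPM with vehicle. Ciita, the master regulator of MHC class II genes, was at 299 CPM in control, 84.6 CPM on vehicle day 1, 211 CPM on day 7 and 328 CPM on day 14. H2-Eb1 followed the same course, at 517, 250, 395 and 653 CPM. Both had their lowest vehicle value on day 1, when the share of these monocytes among all cells was highest. Dendritic cell genes also differed between these pools, which held 454306, 5673544, 151821 and 356999 counts in the same order. Mgl2 had 21, 40, 3 and 46 counts, Flt3 had 32, 25, 13 and 15, and Cd209a had 20, 11, 0 and 9. Relative to the totals, Mgl2 and Flt3 were lowest on vehicle day 1 and Cd209a on day 7. The part of other cells in Ciita and H2-Eb1 was not tested. Within the selecting genes, Treml4 was at 145 CPM in control and at 238, 316 and 207 CPM with vehicle, and Ear2 at 63.8 CPM in control and at 156, 59.3 and 112 CPM, as a description of the members.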

How the data were processed

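Single-cell RNA-seq was done on sorted kidney leukocytes with split-pool barcoding. The deposited matrix holds counts that the authors made with the Parse Biosciences pipeline: demultiplexing, alignment to mm10 and collapse to transcripts per cell and gene, with conditions assigned by first-round well. The gene annotation release is not given in the sources used here. The name vehicle comes from the study's methods, and the 8 GEO samples were not matched to the 8 sublibraries, so conditions were read from the deposited cell table.

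From these counts, cells with over 300 genes, under 20000 transcripts and under 25% mitochondrial transcripts were kept, and the marker rule was applied. The study's limit of 1.5% ribosomal protein transcripts was an alternative. Called doublets, from simulated doublets within each sublibrary, were kept, and their removal was an alternative. Classical monocytes were gated on at least 4 counts of the 6 classical genes, more than of the 6 nonclassical genes, and macrophages on at least 4 counts of C1q genes. Shares have exact Clopper-Pearson 95% intervals, and levels are summed counts as CPM with exact Poisson intervals. Both cover counting error only. Same-day ratios used a pseudocount of 0.5 counts and were taken relative to the median gene.

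Summed counts of the 6 injured pools were tested with edgeR 4.0.16 in R 4.3.3 (TMM scaling, filterByExpr with a minimum count of 10, robust quasi-likelihood fit, day and treatment as terms, 2-sided, Benjamini-Hochberg adjustment over all genes tested). DESeq2 1.42.0 was an alternative. The residual spread is how the effect varies over days, so a p-value here speaks of these pools. Counts were also simulated at the library sizes of these pools (4584 genes). On them the test recovered 74.0% of genes changed by 1 on the log2 scale and 100% of those changed by 2. There were 4 false calls among 174. The simulation gave all genes a common dispersion. It held no day effects, no treatment effects that vary by day and no counts concentrated in few cells. These rates therefore need not hold for the real pools.

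Named genes were those of the selection, of the marker lists, up to 4 per function list with the largest absolute edgeR fold change, up to 10 called in each direction, the 8 with the largest smallest-ratio of vehicle over control in each direction, and the 10 with the largest smallest-ratio over classical monocytes in each direction. The other called genes, and further list members given for their role, were named after their values were seen. The members and lists were chosen with earlier results of these data known. Promoter windows are those of RefSeq, and all 6 selecting genes had one. A few genes are not reported here.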

Additional observations from a re-analysis of the deposited data

Results flagged for a closer look

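Barcodes outside the quality limits were not part of the report, and 17 of 29426 of them met the marker rule (0.0578%). Compared with control (0.0331%, 3 of 9074), the percentage was higher on vehicle day 1 (0.41%, 6 of 1463), on vehicle day 14 (0.0916%, 1 of 1092) and on entospletinib day 7 (0.156%, 6 of 3850). The exact Clopper-Pearson 95% intervals of these 3 pools were 0.151 to 0.890, 0.00232 to 0.509 and 0.0572 to 0.339, and that of control was 0.00682 to 0.0966, so only vehicle day 1 lay clear of control. Most of these barcodes, 14 of 17, were outside through their mitochondrial share and 3 through their transcript count. No sublibrary stood apart from the other 7 in the share of nonclassical monocytes by Dixon's 95% criterion in any of the 7 conditions.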

How the results depend on the processing

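The log2 ratio of the share, entospletinib over vehicle, changed sign in 3 cases: to -0.0047 on day 1 with at least 6 marker counts, and on day 14 to 0.48 with thinning to 1000 transcripts and lower limits of the rule, changed together, and to 1.5 over gated monocytes. Other ratios kept their sign and moved in size. That of day 14 was -1.25 with at least 6 marker counts and that of day 1 was 0.86 over gated monocytes, where vehicle over control was 0.14, -2.20 and -1.40 on days 1, 7 and 14. Without members that held neutrophil transcripts (chosen after seeing the data) the day 1 ratios were 0.46 for entospletinib over vehicle and 1.88 for vehicle over control. Leaving out each sublibrary in turn gave 0.22 to 0.31, 1.00 to 1.29 and -0.33 to -0.017 for entospletinib over vehicle and 2.30 to 2.38, -1.09 to -0.73 and -0.94 to -0.76 for vehicle over control.

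Genes higher with entospletinib (9) numbered 3 with DESeq2, 0 with no day block, 0 with at least 6 marker counts, 0 without called doublets, 5 with the ribosomal limit, 31 with counts capped at 5 per cell (chosen after seeing the data) and 12 to 30 when a day was left out. Genes lower (17) numbered 11 with DESeq2, 59 with no filter on low counts, 0 with no day block, 4 with at least 6 marker counts, 0 without called doublets, 10 with the ribosomal limit, 2 without members that held neutrophil transcripts and 44 to 55 when a day was left out. With no day block 234 genes had an unadjusted p under 0.05. Fits without 1 day rest on 2 pairs, and 18, 23 and 22 of the 26 genes were still called without day 1, day 7 and day 14. RLE scaling gave the same 9 and 17 genes. None of the 26 genes changed sign in any of these fits. The labels give the 8 samples of 1 group, so the pairing of pools is by day, and no other paired analysis was possible because replicates were pooled before barcoding. The cause of these shifts was not tested.

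With a mean of at least 20 CPM, 64, 1129 and 1168 genes passed 2-fold for entospletinib over vehicle on days 1, 7 and 14, and 486, 1053 and 550 for vehicle over control. With members thinned to 1000 transcripts, 833 and 728 passed on days 7 and 14, and 298, 826 and 387 for vehicle over control. Pools of days 7 and 14 held 41 to 120 members and 103003 to 356999 counts, against at least 1064 members and 3067063 counts on day 1, and the parts of cell number and depth in these shifts cannot be told apart.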
